A study of Homo sapiens with 8 samples.

Results

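PDX1 is a homeodomain transcription factor that the pancreatic bud, part of the stomach and duodenum, and the insulin-secreting beta cell depend on. It is known for binding TAAT-containing DNA in the promoters of beta cell genes, among them the insulin gene, and for keeping beta cells apart from other endocrine fates. The libraries described here compare PDX1 KO cells with wild-type (WT) cells across all genes, with attention to pathways, gene families and transcription factors rather than to the islet hormones themselves. They were chosen by their labels and column names: PDX1 KO BFP replicates 1, 2 and 3 and WT BFP replicates 1 and 3, 5 of the 21 libraries analysed. All 5 were made by differentiating H1 cells, a widely used human embryonic stem cell line, toward pancreatic islets in culture. The PDX1 KO BFP group carried a knockout of PDX1, and the WT BFP group carried no edit. Both groups had received the same control vector, which expresses blue fluorescent protein (BFP), on day 11, and RNA was taken on day 18. The other libraries used are ISL1 KO BFP and PAX6 KO BFP (3 libraries each, knockouts of ISL1 or PAX6 with the same vector), and PDX1 KO ISL1 OE and WT ISL1 OE (2 each), which received on day 11 a vector that expresses ISL1 together with the fluorescent protein. The remaining 6, ISL1 KO and PAX6 KO with the ISL1 vector, enter these comparisons only through the shared estimate of spread. The labels do not say how the knockout was made, or how many clones stand behind it, so an effect of PDX1 loss cannot be told apart from a property of the edited line. Replicates are described as biological, without saying whether they are separate differentiations.

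To show the kind of sequence at issue, 3 promoters are printed, of 1 gene that fell and 2 that rose in PDX1 KO. Each is the RefSeq window from 250 bases before to 50 after the start of the gene (GRCh38.p14), read 5′ to 3′ on the minus strand, which is the strand of all 3 genes. Capitals mark 2 TAAT-containing motifs that were searched on both strands, CTAATG and TAATTA. INS encodes insulin (window chr11:2161160-2161459), TPH1 the first enzyme of serotonin synthesis outside the brain (chr11:18046220-18046519), and FEV an ETS factor of serotonergic cells (chr2:218985135-218985434).
INS: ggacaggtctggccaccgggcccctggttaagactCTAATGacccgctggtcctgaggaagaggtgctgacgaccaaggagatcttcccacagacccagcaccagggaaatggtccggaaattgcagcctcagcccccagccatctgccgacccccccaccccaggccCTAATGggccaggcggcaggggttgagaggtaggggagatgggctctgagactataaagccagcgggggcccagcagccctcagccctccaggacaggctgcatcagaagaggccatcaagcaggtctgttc
TPH1: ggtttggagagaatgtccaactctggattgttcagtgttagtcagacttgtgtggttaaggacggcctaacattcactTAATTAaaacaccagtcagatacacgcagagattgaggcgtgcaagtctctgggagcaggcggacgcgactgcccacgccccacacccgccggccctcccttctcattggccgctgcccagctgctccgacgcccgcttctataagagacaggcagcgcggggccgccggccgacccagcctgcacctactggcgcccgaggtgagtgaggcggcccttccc
FEV: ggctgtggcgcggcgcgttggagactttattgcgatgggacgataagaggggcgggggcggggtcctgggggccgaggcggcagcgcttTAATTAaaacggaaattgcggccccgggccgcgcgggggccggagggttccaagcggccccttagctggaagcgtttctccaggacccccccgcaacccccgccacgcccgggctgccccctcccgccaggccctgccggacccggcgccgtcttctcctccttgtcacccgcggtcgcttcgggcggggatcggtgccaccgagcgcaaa
In the INS window CTAATG began 215 and 82 bases before the start, and TAATTA began 172 bases before the start of TPH1 and 161 before that of FEV. The motifs do not overlap each other. Over the 13708 tested genes with a window, CTAATG stood in 3.19% of the 627 windows of genes that rose, 4.56% of the 1075 of genes that fell and 4.42% of the 12006 of genes not called. TAATTA stood in 4.78%, 3.26% and 2.44% of the same windows. These shares describe letters near gene starts and were not tested against each other, and the 3 promoters were chosen with their values known.

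Levels are normalised read counts, CPM (read counts relative to the TMM-scaled size of the library), listed in the order of replicates 1, 2 and 3 for PDX1 KO and 1 and 3 for WT. A gene was called, and is said to have risen or fallen, when edgeR's quasi-likelihood test gave a Benjamini-Hochberg adjusted p under 0.05 over all 22207 genes tested. Fold changes are log2, PDX1 KO over WT, with their standard error. The 5 libraries held 40959445 to 64652297 counts and 24721 to 25895 detected genes, and correlated at 0.992 to 0.994 within the groups and 0.959 to 0.970 between them. Among the 16 other libraries 2 stood apart, and they enter the comparison with WT under BFP only through the shared estimate of spread: those labelled PAX6 KO ISL1 OE replicate 3 and PDX1 KO ISL1 OE replicate 4. The second had 44880 CPM of INS, against 323.7 CPM in PDX1 KO ISL1 OE replicate 2 and 12580 and 15160 CPM in WT ISL1 OE, and whether its label is right was not tested. A fit without both, the 19-library fit, is given beside counts. Each fit that left out 1 of the 5 libraries kept these 2 in the estimate of spread. The libraries had been read on 2 sets of lanes, with PDX1 KO replicates 1 and 2 and WT replicate 3 on lanes 1 to 4, and PDX1 KO replicate 3 and WT replicate 1 on lanes 5 to 8. Every one of the 2530 called genes differed in the same direction within each set of lanes. The groups did not overlap in 1012 of the 1012 called genes that rose and 1516 of the 1518 that fell, against 56.1% of all genes tested. Without overlap the direction within each set of lanes is fixed, so this is no check on the lanes. PDX1 RNA itself was present in all 5 libraries, at 93.1, 104.5 and 103.99 CPM in PDX1 KO, against 73.97 and 95.1 CPM in WT, and was not called (log2 fold change 0.25 ± 0.23, adjusted p = 0.572). Counts per gene do not show a small edit, so this level does not check the label.

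Islet endocrine markers were abundant in both groups. The summed level of 12 pan-endocrine markers was 47440 to 51040 CPM in PDX1 KO, against 23450 and 29190 CPM in WT, most of it chromogranin A, whose gene CHGA had 41672, 41922 and 38749 CPM in PDX1 KO, against 17524 and 21341 CPM in WT (adjusted p = 0.0534; named after its values were seen). By edgeR 1 of these 12 markers rose and 1 fell. Sums over markers of single islet cell types went the other way. The 16 beta cell markers, INS among them, summed to 970.3 to 1172 CPM in PDX1 KO and 12680 and 15110 CPM in WT, and the 12 alpha cell markers to 18920 to 23670 CPM in PDX1 KO and 40760 and 55040 CPM in WT. Most of the alpha cell sum was the glucagon gene GCG. It had 13760, 17820 and 15280 CPM in PDX1 KO and 33910 and 48230 CPM in WT. In WT most of the beta cell sum was INS. By edgeR 1 of the beta cell markers rose and 10 fell, and 1 of the alpha cell markers rose and 3 fell. Markers of other cells moved with the groups as well. The 16 hepatocyte markers summed to 7435 to 8100 CPM in PDX1 KO and 27080 and 29830 CPM in WT, the 13 markers of duct and pancreatic progenitors to 1449 to 1527 CPM in PDX1 KO and 2964 and 3057 CPM in WT, and the 9 markers of enterochromaffin-like cells to 4274 to 4844 CPM in PDX1 KO and 1402 and 1642 CPM in WT. The sums of 12 mesenchyme markers varied within groups, at 286.7, 301.8 and 921.0 CPM in PDX1 KO and 564.5 and 1455 CPM in WT. The part of these cell populations in the gene changes below was not tested. In bulk RNA, fewer cells of a type and less RNA per cell cannot be told apart.

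In PDX1 KO, 1012 genes were higher and 1518 lower than in WT, which is 4.56% and 6.84% of all genes tested and 11.4% together. The median fold change of the called genes was 1.54 for those that rose and 1.84, in size, for those that fell, both on the log2 scale, and 104 rose and 286 fell at least 8-fold. The count rests on both WT libraries: it was 771 without WT replicate 1 and 999 without WT replicate 3, and 1410 to 1785 without 1 of the PDX1 KO libraries. In the 19-library fit it was 7655, 33.3% of 23015 genes, with 15.8% higher and 17.5% lower. Counts of the lists below are to be read against these shares. The genes named below were picked by a fixed rule of size and significance among genes with a symbol, except where said. Of the 321 called ones 151 stayed called without WT replicate 1, 180 without WT replicate 3, and 216 to 265 without 1 of the PDX1 KO libraries. The groups did not overlap in 56.1% of all genes tested.

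The largest rise among genes at a mean log2 CPM of at least 2 was that of NKX3-2 (chr4:13540830-13545050, GRCh38), a homeodomain repressor known from gut mesenchyme and the axial skeleton. It had 37.998, 50.1 and 67.1 CPM in PDX1 KO, against 1.09 and 1.24 CPM in WT, a log2 fold change of 5.47 ± 0.79 (adjusted p = 0.000503). Every PDX1 KO library lay far above both WT libraries. KCNIP1, which encodes a subunit that binds voltage-gated potassium channels, had 135.1, 151.2 and 107.5 CPM in PDX1 KO, against 5.88 and 7.67 CPM in WT (4.28 ± 0.52, adjusted p = 0.000208). KCNJ3, a G-protein-gated potassium channel, had 116.95, 138.7 and 147.9 CPM in PDX1 KO and 11.2 and 16.6 CPM in WT. RGS7BP, whose product anchors regulators of G-protein signalling at the membrane, had 41.7, 48.5 and 65.9 CPM in PDX1 KO and 4.33 and 4.51 CPM in WT, and ARPP21, a cAMP-regulated phosphoprotein first described in the striatum, 138.4, 180.5 and 155.8 CPM in PDX1 KO and 8.08 and 11.1 CPM in WT. In none of these genes did the groups overlap. PROKR1, a receptor of prokineticins, had 42.99, 57.9 and 75.2 CPM in PDX1 KO and 1.37 and 1.90 CPM in WT (5.17 ± 0.98). BRINP3, a gene of the nervous system, rose by 3.73 ± 0.59, KIRREL3, an adhesion molecule, by 3.89 ± 0.58, and B3GAT1, which makes the HNK-1 sugar epitope of neural and neuroendocrine cells, by 3.19 ± 0.36. The parathyroid hormone-like hormone gene PTHLH was abundant in PDX1 KO, at 428.6, 601.5 and 509.8 CPM in PDX1 KO, against 45.1 and 76.6 CPM in WT (3.08 ± 0.48). The remaining ones were DLX5, GRIA1, KIAA1024, TPH1 and EFCC1, with log2 fold changes between 3.26 and 4.0. When 1 WT library was left out, the calls of PROKR1, EFCC1, DLX5, GRIA1 and KIAA1024 were lost, at adjusted p of up to 0.0575, 0.0642, 0.0666, 0.0766 and 0.0977 in that order.

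The genes with the largest falls began with AC079062.1 (chr18:73151241-73264480), annotated as a processed transcript, which had 0.0183, 0 and 0 CPM in PDX1 KO, against 18.9 and 21.6 CPM in WT (adjusted p = 0.00458), and no fold is given for so few reads. This transcript was nearly absent from ISL1 KO (0.0485, 0 and 0.0143 CPM) and PAX6 KO (0.0928, 0 and 0 CPM) as well, so its fall is not particular to PDX1 KO. GIP, the incretin hormone of intestinal K cells (chr17:48958554-48968596), fell to 0.404, 0.393 and 0.280 CPM in PDX1 KO, against 28.5 and 48.5 CPM in WT (-6.73 ± 1.14, adjusted p = 0.0015). Gastrin followed, with GAST at 6.42, 7.41 and 5.02 CPM in PDX1 KO, against 336.5 and 190.97 CPM in WT (-5.39 ± 1.0). G6PC2, the glucose-6-phosphatase subunit of islets and a long-known autoantigen of the beta cell, had 1.16, 1.81 and 1.34 CPM in PDX1 KO, against 81.1 and 94.6 CPM in WT (-5.93 ± 0.90, adjusted p = 0.000942). INS had 371.1, 313.8 and 172.9 CPM in PDX1 KO, against 13286 and 10444 CPM in WT (-5.38 ± 1.05). Reads of INS and of the overlapping readthrough with IGF2 cannot be told apart here. Receptors were among them, with log2 fold changes of -5.36 ± 0.76 for the leukotriene receptor CYSLTR2, -5.16 ± 0.63 for the calcium-sensing receptor CASR and -5.26 ± 0.62 for the innate immune receptor TLR4. CASR had 4.18, 2.25 and 3.98 CPM in PDX1 KO and 138.6 and 109.4 CPM in WT. LGALS4, a galectin of gut epithelium, had 1.19, 0.409 and 0.740 CPM in PDX1 KO, against 25.2 and 22.6 CPM in WT. CEACAM6, an adhesion molecule of epithelia, had 0.477, 1.01 and 1.08 CPM in PDX1 KO and 30.5 and 18.8 CPM in WT. The glycosyltransferase B4GALNT2 had 1.56, 0.755 and 0.780 CPM in PDX1 KO and 34.9 and 26.6 CPM in WT, and the muscle and liver carbonic anhydrase CA3 3.38, 1.76 and 1.22 CPM in PDX1 KO and 54.3 and 74.8 CPM in WT. DNAH8, a heavy chain of axonemal dynein, had 0.587, 0.645 and 0.380 CPM in PDX1 KO and 34.5 and 28.4 CPM in WT, and ARHGAP36, described as an inhibitor of protein kinase A and an activator of Hedgehog signalling, was at 0, 0 and 0.0200 CPM in PDX1 KO and 0.655 and 0.769 CPM in WT. The calls of these genes, all of them falls, held in each of the 5 fits that left out 1 library.

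**Figure D1:**
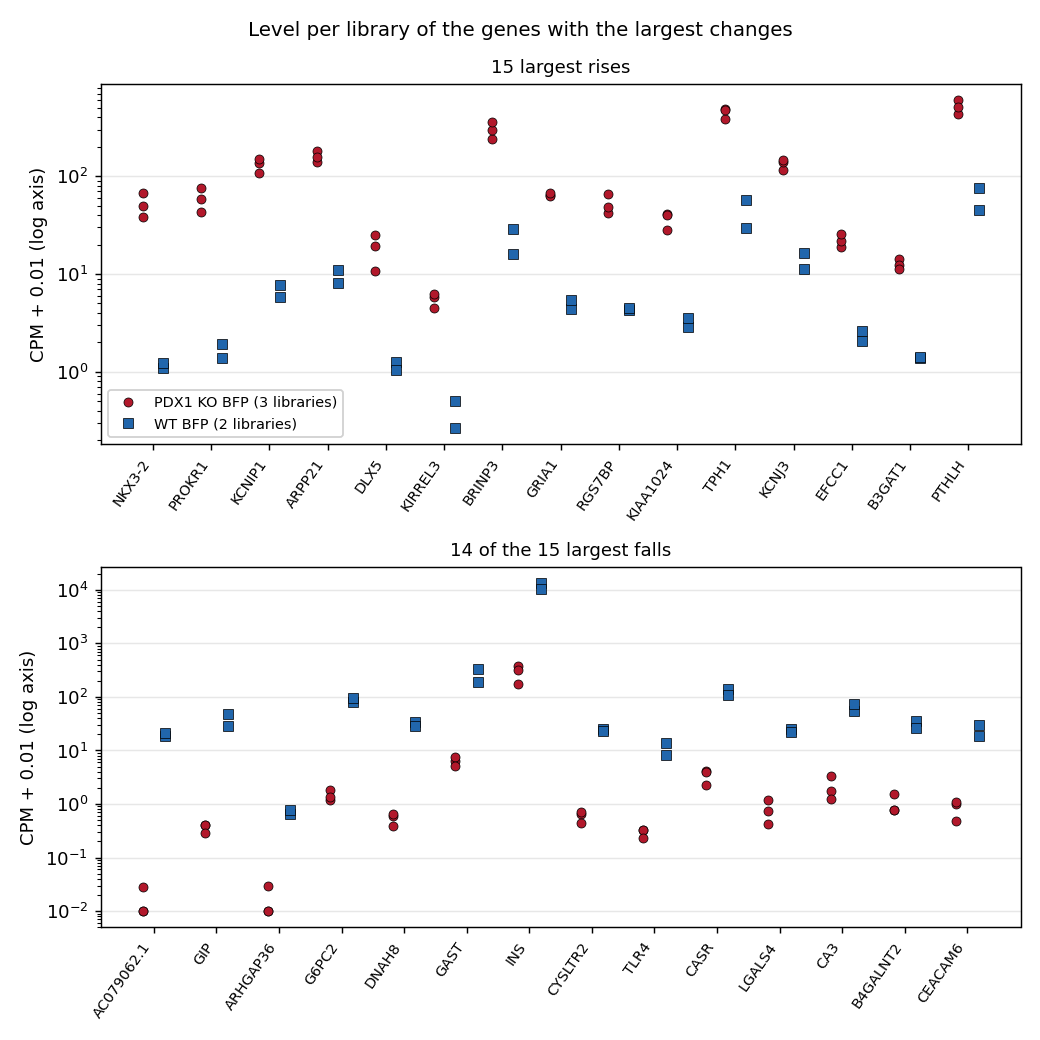
CPM per library (log axis, 0.01 added) of the 15 genes with a symbol and the largest rises (top) and of 14 of the 15 with the largest falls (bottom), PDX1 KO as red circles left of WT as blue squares. In each gene shown the 3 PDX1 KO points lie on 1 side of the 2 WT points, which the rule for choosing them required.

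Transcription factors were followed as families. Of 402 tested factors in the lists other than the ZNF genes, 36 rose and 41 fell, with a median log2 fold change of -0.14, against 0.02 over all genes. The 485 genes named ZNF, most of them of the large family with tandem zinc fingers, had 7 higher and 11 lower (3.71%, against 11.4% of all genes), and 70 and 46 in the 19-library fit. That difference in share was not tested.

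Among islet and endocrine factors 11 of the 35 tested rose and 4 fell (3 to 9 and 2 to 4 with 1 library left out, 16 and 6 in the 19-library fit), with a median of 0.58. NKX6-1, a factor of pancreatic progenitors and beta cells, had 288.3, 267.4 and 328.04 CPM in PDX1 KO, against 41.7 and 72.97 CPM in WT (2.36 ± 0.41, adjusted p = 0.0017). MNX1, which acts in the pancreatic bud and in motor neurons, had 268.6, 359.01 and 275.98 CPM in PDX1 KO, against 50.8 and 78.4 CPM in WT (2.22 ± 0.37). LMX1A, a LIM homeodomain factor of dopaminergic and enterochromaffin cells, had 521.4, 543.5 and 467.2 CPM in PDX1 KO, against 82.9 and 88.8 CPM in WT (2.57 ± 0.49). The endocrine zinc finger factors INSM1 and MYT1 also rose, INSM1 at 2616, 2700 and 2840 CPM in PDX1 KO, against 586.9 and 897.8 CPM in WT, and MYT1 at 26.1, 21.2 and 21.7 CPM in PDX1 KO and 6.69 and 9.31 CPM in WT. NKX2-2, needed for several islet cell types, had 96.5, 98.6 and 110.3 CPM in PDX1 KO and 19.2 and 32.4 CPM in WT. FEV had 1296, 1610 and 1329 CPM in PDX1 KO and 347.8 and 410.6 CPM in WT. Among those that fell, HHEX, a factor of foregut and delta cells, had 5.98, 6.12 and 3.34 CPM in PDX1 KO, against 24.2 and 26.05 CPM in WT (-2.29 ± 0.31). The ETS factor ETV1 had 25.8, 31.7 and 21.3 CPM in PDX1 KO, against 82.98 and 110.8 CPM in WT (-1.88 ± 0.24). ISL1 had 139.8, 156.97 and 122.8 CPM in PDX1 KO and 284.9 and 484.2 CPM in WT (-1.46 ± 0.38). In each of these the 3 PDX1 KO libraries lay on one side of both WT libraries. The calls of INSM1, MYT1 and NKX2-2 were lost without WT replicate 1 (adjusted p = 0.154, 0.0832 and 0.146). FEV lost its call without either WT library (up to 0.137), and ISL1 lost it in all fits but that without WT replicate 1 (up to 0.256).

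Homeobox and SOX genes outside the islet list included some of the steepest changes of factors. The family counts that follow also hold members of the islet list, among them NKX6-1, NKX2-2, LMX1A and ISL1. Of the NKX genes 3 of the 11 tested rose and 2 fell (2 to 3 and 1 to 2 with 1 library left out, 3 and 2 in the 19-library fit), NKX3-2 among them. NKX2-8, a factor of the foregut and liver, was low in both groups, at 0.0734, 0 and 0.100 CPM in PDX1 KO and 1.05 and 1.15 CPM in WT. DLX5 and DLX6 are neighbours on chromosome 7, and both rose. DLX5 had 10.7, 25.3 and 19.2 CPM in PDX1 KO, against 1.25 and 1.04 CPM in WT. DLX6 had 1.71, 2.44 and 2.36 CPM in PDX1 KO, against 0.218 and 0.165 CPM in WT (3.47 ± 0.62, adjusted p = 0.00188). Among the SOX genes 5 of the 17 tested rose and 1 fell (2 to 4 and 0 with 1 library left out, 7 and 1 in the 19-library fit). SOX2, a factor of stomach, foregut and neural progenitors, had 30.8, 39.6 and 46.3 CPM in PDX1 KO, against 4.21 and 7.34 CPM in WT (2.75 ± 0.49, adjusted p = 0.00195). Its relative SOX1, known from the neural plate, had 4.95, 7.38 and 6.14 CPM in PDX1 KO, against 0.357 and 0.495 CPM in WT (3.86 ± 0.53). SOX3, the third member of that subgroup, had 2.13, 1.46 and 1.86 CPM in PDX1 KO and 0.417 and 0.0824 CPM in WT. It was named after its values were seen, and its call was lost in each fit that left out a library (adjusted p up to 0.253). PAX1, a factor of the pharyngeal pouches and sclerotome, had 1.41, 1.20 and 1.22 CPM in PDX1 KO and 0.0397 and 0.0275 CPM in WT. The only HOX gene called was HOXD1, which had 0.385, 0.283 and 0.420 CPM in PDX1 KO, against 3.65 and 7.58 CPM in WT (-3.95 ± 0.66). Of the LIM homeobox genes 2 of the 11 tested rose and 3 fell (1 to 2 and 0 to 2 with 1 library left out, 2 and 3 in the 19-library fit). LHX1, a factor of kidney and brain, had 0.807, 0.346 and 0.940 CPM in PDX1 KO and 5.26 and 4.84 CPM in WT (adjusted p = 0.0127, up to 0.0811 with 1 library left out).

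Factors of other families were called as well. FOXQ1, a forkhead factor of stomach surface cells, had 1.39, 1.34 and 1.34 CPM in PDX1 KO, against 13.04 and 8.82 CPM in WT (-3.01 ± 0.43, adjusted p = 0.000497). BHLHA15, also called MIST1, which drives the secretory apparatus of acinar and plasma cells, had 4.07, 3.08 and 3.24 CPM in PDX1 KO, against 20.4 and 22.995 CPM in WT (-2.65 ± 0.37). KLF5, a factor of gut epithelium, had 72.9, 79.1 and 72.6 CPM in PDX1 KO and 268.7 and 198.7 CPM in WT. CDX1, which directs intestinal identity, had 1.19, 0.142 and 0.260 CPM in PDX1 KO and 11.1 and 4.48 CPM in WT, with 1 of the PDX1 KO libraries several-fold above the others (adjusted p = 0.0272, up to 0.224 with 1 library left out). Of the nuclear receptors 3 of the 41 tested rose and 3 fell (1 to 2 and 2 to 3 with 1 library left out, 6 and 11 in the 19-library fit). Together these calls were 14.6% of that list, near the 11.4% of all genes. PPARG, the regulator of fat storage, had 9.16, 11.5 and 10.3 CPM in PDX1 KO, against 43.8 and 42.1 CPM in WT (-2.06 ± 0.27). NR2E3, known from photoreceptors, had 0.349, 0.535 and 0.240 CPM in PDX1 KO and 14.8 and 8.35 CPM in WT (-4.93 ± 0.93). NR0B1, the orphan receptor DAX1, went the other way, with 213.4, 240.4 and 210.8 CPM in PDX1 KO, against 76.1 and 76.5 CPM in WT (1.54 ± 0.28). Of the FOS, JUN, ATF, CREB and CEBP genes 1 of the 30 tested rose and 6 fell (0 to 1 and 0 to 2 with 1 library left out, 4 and 11 in the 19-library fit). CEBPD, an acute-phase factor, had 20.8, 14.7 and 15.1 CPM in PDX1 KO and 112.1 and 83.8 CPM in WT, and its call was lost without WT replicate 1 (adjusted p = 0.0623). MAF, the c-MAF gene, was the single called member of its family, at 4.62, 4.71 and 5.46 CPM in PDX1 KO, against 13.1 and 12.8 CPM in WT (-1.39 ± 0.27). The remaining ones among the 10 factors with the largest fall were IRF8, MSX2, TBX3 and IRF1, and POU2F2 was among the 10 with the largest rise. IRF8, a factor of blood cells, had 16.6, 10.5 and 10.6 CPM in PDX1 KO and 95.6 and 60.9 CPM in WT, MSX2, a homeodomain factor of BMP signalling, 4.61, 2.16 and 2.04 CPM in PDX1 KO and 16.8 and 15.03 CPM in WT, TBX3, a T-box factor of liver and limb, 87.4, 47.8 and 49.5 CPM in PDX1 KO and 332.2 and 210.3 CPM in WT, and POU2F2, known from B cells, 19.6, 23.4 and 23.6 CPM in PDX1 KO and 1.91 and 4.20 CPM in WT. The calls of IRF8, TBX3 and POU2F2 were lost without WT replicate 1 (adjusted p = 0.0502, 0.089 and 0.116), and that of MSX2 in every fit that left out a library but that without PDX1 KO replicate 1 (up to 0.177). None of the 5 GATA genes tested was called by edgeR or DESeq2, 1 had an unadjusted p under 0.05, and 1 was lower in the 19-library fit.

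**Figure D2:**
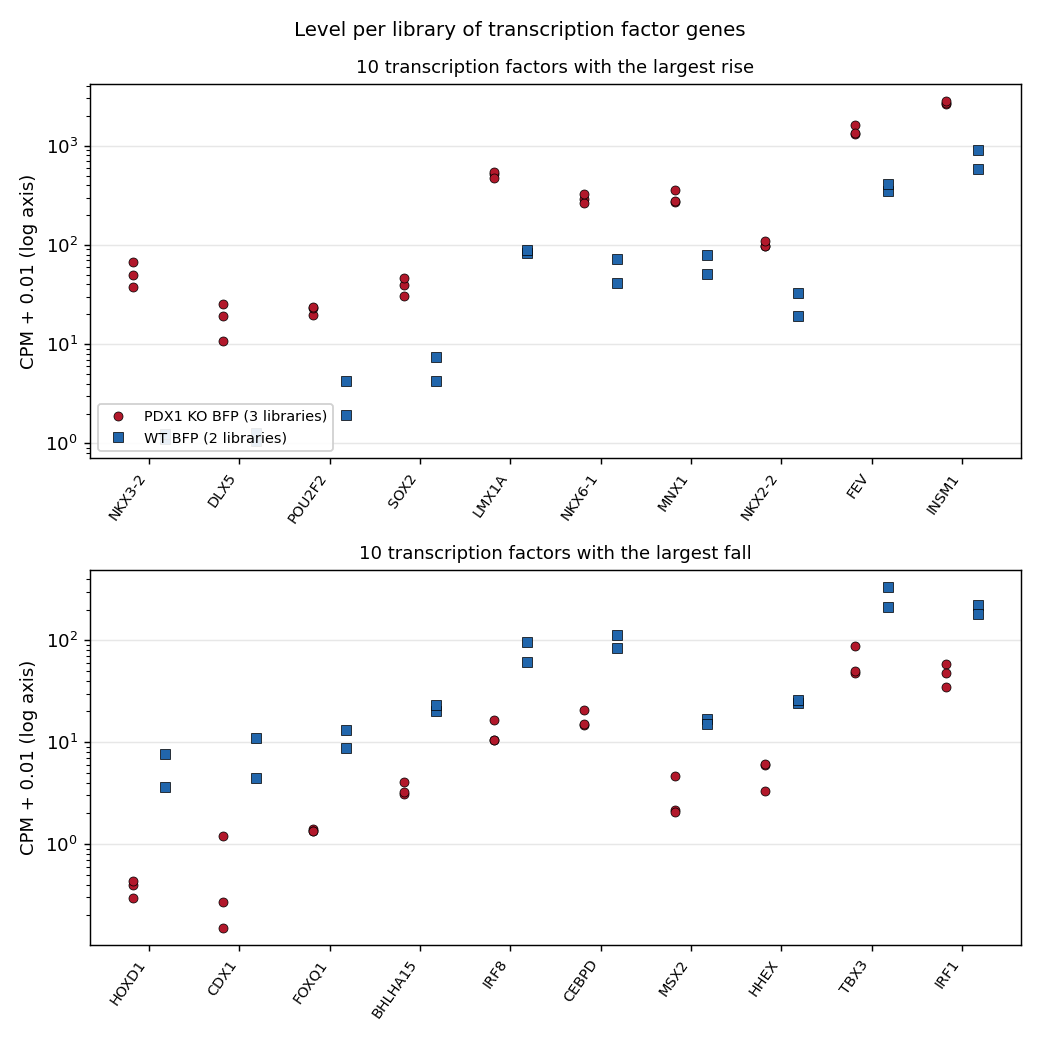
CPM per library (log axis, 0.01 added) of the 10 transcription factor genes with the largest rise (top) and the 10 with the largest fall (bottom) among called genes at a mean log2 CPM of at least 2, PDX1 KO as red circles left of WT as blue squares. NKX3-2 shows the widest gap among the rises and HOXD1 among the falls.

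Vesicle exocytosis in endocrine cells uses much of the synaptic machinery. Of that machinery 12 of the 39 tested rose and 2 fell (1 to 8 and 1 to 2 with 1 library left out, 26 and 4 in the 19-library fit), with a median of 0.87. RAB3C, a small GTPase of secretory vesicles, had 126.01, 101.7 and 136.4 CPM in PDX1 KO, against 33.8 and 44.6 CPM in WT (1.63 ± 0.26, adjusted p = 0.000891). RAB27B, which docks granules at the membrane, fell instead, to 3.03, 1.29 and 3.48 CPM in PDX1 KO against 27.4 and 26.2 CPM in WT (-3.37 ± 0.59). The complexins, which clamp the fusion machinery, were higher, CPLX1 at 25.4, 19.6 and 24.5 CPM in PDX1 KO and 9.67 and 11.4 CPM in WT, and CPLX2 at 43.9, 23.04 and 41.7 CPM in PDX1 KO and 9.13 and 11.1 CPM in WT. Both complexin calls were lost without WT replicate 1 (adjusted p = 0.0864 and 0.121), and that of CPLX2 also without WT replicate 3. Among the synaptotagmins, the calcium sensors of fusion and their relatives, 5 of the 16 tested rose and 2 fell (2 to 5 and 1 to 2 with 1 library left out, 9 and 3 in the 19-library fit). SYT13 had 256.5, 234.2 and 212.4 CPM in PDX1 KO, against 46.7 and 51.4 CPM in WT (2.26 ± 0.23, adjusted p = 9.31e-05), which was among the smallest adjusted p of the comparison. SYT6 had 42.03, 40.8 and 34.2 CPM in PDX1 KO and 12.9 and 11.95 CPM in WT (1.65 ± 0.28), and SYT8 fell, with 0.404, 0.220 and 0.340 CPM in PDX1 KO and 1.79 and 1.59 CPM in WT.

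Ion channels and receptors of excitable cells were called in both directions. Of the potassium channel genes 14 of the 87 tested rose and 8 fell (6 to 10 and 1 to 5 with 1 library left out, 23 and 15 in the 19-library fit). Beside KCNIP1 and KCNJ3, KCNS3, a silent subunit of voltage-gated channels, had 103.3, 136.9 and 106.8 CPM in PDX1 KO, against 27.5 and 31.6 CPM in WT (1.97 ± 0.29). The potassium leak channel KCNK13 had 6.62, 7.92 and 6.24 CPM in PDX1 KO and 0.417 and 1.21 CPM in WT (3.11 ± 0.43). Of those that fell, KCNF1 had 8.79, 7.60 and 6.38 CPM in PDX1 KO and 37.7 and 29.8 CPM in WT, and the inward rectifier KCNJ13 0.697, 0.504 and 0.640 CPM in PDX1 KO and 7.80 and 9.45 CPM in WT. Among the glutamate receptors 4 of the 26 tested rose and 0 fell (1 to 3 and 0 with 1 library left out, 5 and 1 in the 19-library fit). GRIK5, a kainate receptor subunit, had 2.86, 2.80 and 3.82 CPM in PDX1 KO and 0.655 and 0.632 CPM in WT (2.29 ± 0.43). ADRB1, the beta-1 adrenergic receptor, had 12.95, 16.5 and 13.6 CPM in PDX1 KO, against 1.01 and 0.769 CPM in WT (4.0 ± 0.53, adjusted p = 0.000301). NRXN2, a presynaptic neurexin, rose by 1.80 ± 0.30, and UNC5D, a netrin receptor, by 1.70 ± 0.32. The guidance ligand SEMA3B and the cadherins CDH18 and PCDH20 fell, by log2 changes of -2.60, -2.10 and -1.85. The summed level of the 16 neuron markers was 904.2 to 1085 CPM in PDX1 KO, against 798.2 and 954.5 CPM in WT, so that these ranges overlapped. By edgeR 4 of these markers rose and 0 fell, 25% against 11.4% of all genes. DESeq2 called 6 higher and 2 lower, and the 19-library fit 7 higher and 4 lower. KCNF1 lost its call without WT replicate 1 (adjusted p = 0.0555), and KCNJ13 lost it without WT replicate 3 or PDX1 KO replicate 2 (up to 0.0544). Of 20 genes of the cilium and targets of RFX factors, 5 rose and none fell (0 to 3 with 1 library left out), with a median of 0.92, and 12 rose and none fell in the 19-library fit. TTC29, a gene of motile cilia, had 30.5, 43.9 and 28.2 CPM in PDX1 KO and 13.3 and 9.73 CPM in WT (adjusted p = 0.00387, 0.0773 without WT replicate 3).

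Genes of serotonin synthesis and storage and the trefoil peptide genes rose. Among 9 markers of enterochromaffin-like cells, named here after the serotonin-storing enterochromaffin cells of the gut, 6 rose and none fell (5 to 6 with 1 library left out). TPH1 had 381.3, 483.7 and 480.8 CPM in PDX1 KO, against 29.5 and 57.1 CPM in WT (3.37 ± 0.61, adjusted p = 0.00208). SLC18A1, the vesicular monoamine transporter of endocrine cells, had 340.2, 347.6 and 357.9 CPM in PDX1 KO, against 32.9 and 55.7 CPM in WT (2.98 ± 0.53). DDC, the decarboxylase that completes serotonin synthesis, had 763.4, 828.5 and 745.01 CPM in PDX1 KO, against 289.02 and 294.9 CPM in WT (1.42 ± 0.20). CBLN1, a cerebellin, had 160.6, 164.7 and 163.99 CPM in PDX1 KO and 18.005 and 25.001 CPM in WT. Of 9 stomach markers tested, TFF1, TFF2 and SOX2 rose and GAST fell. TFF3, the trefoil peptide of intestinal goblet cells, had 45.4, 52.7 and 60.9 CPM in PDX1 KO, against 9.63 and 6.84 CPM in WT (2.69 ± 0.42), and was the single intestine marker of 13 that rose, while 5 fell (2 to 5 with 1 library left out). FABP1, the fatty acid binding protein of liver and gut, had 17.9, 8.31 and 11.96 CPM in PDX1 KO, against 136 and 163.1 CPM in WT (-3.55 ± 0.73). CDH17, the liver-intestine cadherin, had 6.20, 4.22 and 6.28 CPM in PDX1 KO, against 80.1 and 59.8 CPM in WT (-3.65 ± 0.79). The calls of TFF1 and TFF2 did not hold in every fit that left out a library (adjusted p up to 0.158 and 0.224).

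Genes of liver-type secreted proteins were lower as a group. Of the hepatocyte markers 0 of the 16 tested rose and 12 fell (0 and 6 to 11 with 1 library left out, 0 and 15 in the 19-library fit), with a median of -2.02. AFP, the fetal serum protein of liver and yolk sac, had 896.8, 848.8 and 1190 CPM in PDX1 KO, against 3928 and 5022 CPM in WT (-2.19 ± 0.38, adjusted p = 0.0016). Albumin, ALB, had 18.7, 12.4 and 13.7 CPM in PDX1 KO, against 148.8 and 100.5 CPM in WT (-3.06 ± 0.44). The fibrinogen chain FGB had 1808, 1648 and 1858 CPM in PDX1 KO, against 6668 and 7597 CPM in WT (-2.01 ± 0.37). RBP4, the carrier of retinol in plasma, had 29.1, 17.3 and 19.4 CPM in PDX1 KO, against 243.8 and 324.5 CPM in WT (-3.69 ± 0.70). Of the apolipoprotein genes 0 of the 19 tested rose and 11 fell (0 and 2 to 9 with 1 library left out, 0 and 16 in the 19-library fit), with APOC1 at 155.4, 137.4 and 155.8 CPM in PDX1 KO, against 542.4 and 566.4 CPM in WT (-1.89 ± 0.39). Of the serpin genes 0 of the 24 tested rose and 6 fell (0 and 4 to 6 with 1 library left out, 1 and 11 in the 19-library fit). SERPINC1, antithrombin, had 0.771, 0.331 and 0.700 CPM in PDX1 KO and 6.21 and 8.79 CPM in WT. SERPINH1, the collagen chaperone, had 86.4, 56.5 and 73.9 CPM in PDX1 KO and 145.2 and 144.7 CPM in WT. The calls of AFP, ALB, FGB, RBP4, APOC1, SERPINC1 and SERPINH1 each held with any of the 5 libraries left out. The lower sums of the 16 hepatocyte markers given above are made of these same listed genes, so they are not separate from the falls of that list. The part of hepatocytes in these falls was not tested.

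The endoplasmic reticulum folds secreted proteins with chaperones and disulfide isomerases. Of the genes of folding and of the unfolded protein response 0 of the 32 tested rose and 12 fell (0 and 8 to 10 with 1 library left out, 2 and 22 in the 19-library fit), with a median of -0.77. The chaperone HSPA5, also called BiP, had 1219, 1306 and 1306 CPM in PDX1 KO, against 2520 and 2690 CPM in WT (-1.03 ± 0.15, adjusted p = 0.000534). HSP90B1 had 991.5, 1087 and 1098 CPM in PDX1 KO, against 2011 and 2064 CPM in WT (-0.94 ± 0.16). The disulfide isomerase PDIA6 had 461.5, 464.5 and 482.3 CPM in PDX1 KO, against 1079 and 1228 CPM in WT (-1.30 ± 0.18). ERO1B, the oxidase of the pancreatic endoplasmic reticulum, changed more, with 148.8, 167.1 and 136.6 CPM in PDX1 KO, against 1012 and 1322 CPM in WT (-2.95 ± 0.28, adjusted p = 9.31e-05). BHLHA15, described above, fell in the same libraries.

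Genes of class I antigen presentation and cathepsins, proteases found mostly in lysosomes, had calls of lower levels and none of higher ones. Of the class I list 0 of the 15 tested rose and 7 fell (0 and 1 to 6 with 1 library left out, 0 and 13 in the 19-library fit), with a median of -1.61. ERAP2, a peptidase that trims peptides for presentation, had 6.72, 3.87 and 3.74 CPM in PDX1 KO, against 24.8 and 20.2 CPM in WT (-2.23 ± 0.45). HLA-C had 160.2, 131.4 and 134.2 CPM in PDX1 KO and 452.2 and 434.5 CPM in WT (adjusted p = 0.00962, up to 0.0842 without a WT library), and reads of such near-identical genes may be split between them. The interferon list moved both ways, with 6 of 26 higher and 5 lower (2 to 6 and 2 to 5 with 1 library left out, 10 and 6 in the 19-library fit). IFIT3 had 8.24, 7.24 and 6.54 CPM in PDX1 KO, against 28.1 and 27.8 CPM in WT (-1.93 ± 0.36), and the factor IRF1 59.04, 35.04 and 47.4 CPM in PDX1 KO, against 222.8 and 182.4 CPM in WT (-2.10 ± 0.42). IRF9, which carries the interferon signal to DNA, rose, at 119.2, 141.2 and 129.4 CPM in PDX1 KO, against 61.6 and 60.4 CPM in WT (1.09 ± 0.21), as did IFI6, at 527.5, 718.7 and 606.9 CPM in PDX1 KO, against 115.95 and 157.9 CPM in WT (2.17 ± 0.42), which lost its call without WT replicate 1 (adjusted p = 0.0689). Of the cathepsins 0 of the 14 tested rose and 7 fell (0 and 3 to 7 with 1 library left out, 1 and 10 in the 19-library fit). CTSC, which activates serine proteases, had 138.9, 118.8 and 130.2 CPM in PDX1 KO, against 606.8 and 453.9 CPM in WT (-2.04 ± 0.38). CTSE, an aspartic protease of stomach surface cells, had 2.70, 2.97 and 3.76 CPM in PDX1 KO, against 15.4 and 13.5 CPM in WT (-2.20 ± 0.46).

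Claudin and S100 genes were called lower only, and duct markers mostly lower. Among the claudins, the seals of tight junctions, 0 of the 18 tested rose and 6 fell (0 and 3 to 5 with 1 library left out, 2 and 8 in the 19-library fit), with a median of -1.28. CLDN1 had 8.68, 9.81 and 12.3 CPM in PDX1 KO, against 45.1 and 60.7 CPM in WT (-2.37 ± 0.28, adjusted p = 0.000193). CLDN6, a claudin of embryonic epithelia, had 78.03, 57.5 and 64.4 CPM in PDX1 KO and 195.1 and 189.4 CPM in WT. CLDN2, a pore-forming one, had 0.569, 0.0157 and 0.340 CPM in PDX1 KO and 8.46 and 10.4 CPM in WT. Of the S100 genes, small calcium-binding proteins, 0 of the 15 tested rose and 6 fell (0 and 1 to 5 with 1 library left out, 0 and 10 in the 19-library fit). S100A14 had 9.67, 3.32 and 3.46 CPM in PDX1 KO and 105.7 and 126.2 CPM in WT, and S100A16 49.2, 34.2 and 32.8 CPM in PDX1 KO and 259.4 and 246.3 CPM in WT. The call of S100A14 was lost without PDX1 KO replicate 2, PDX1 KO replicate 3 or WT replicate 3 (adjusted p up to 0.0583), and that of S100A16 in 4 of the 5 fits (up to 0.0766). Among duct and progenitor markers, osteopontin, SPP1, had 4.39, 3.29 and 4.68 CPM in PDX1 KO, against 33.7 and 23.1 CPM in WT (-2.79 ± 0.33), and the stem cell surface protein PROM1 had 71.5, 47.2 and 60.2 CPM in PDX1 KO, against 241.1 and 235.5 CPM in WT (-2.0 ± 0.43). The membrane-bound annexin ANXA4 had 166.96, 179.7 and 171.7 CPM in PDX1 KO, against 411.1 and 454.5 CPM in WT (-1.32 ± 0.18). DPP4, the surface peptidase that inactivates incretins, had 291.1, 221.5 and 236.2 CPM in PDX1 KO, against 1676 and 1643 CPM in WT (-2.73 ± 0.59).

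**Figure D3:**
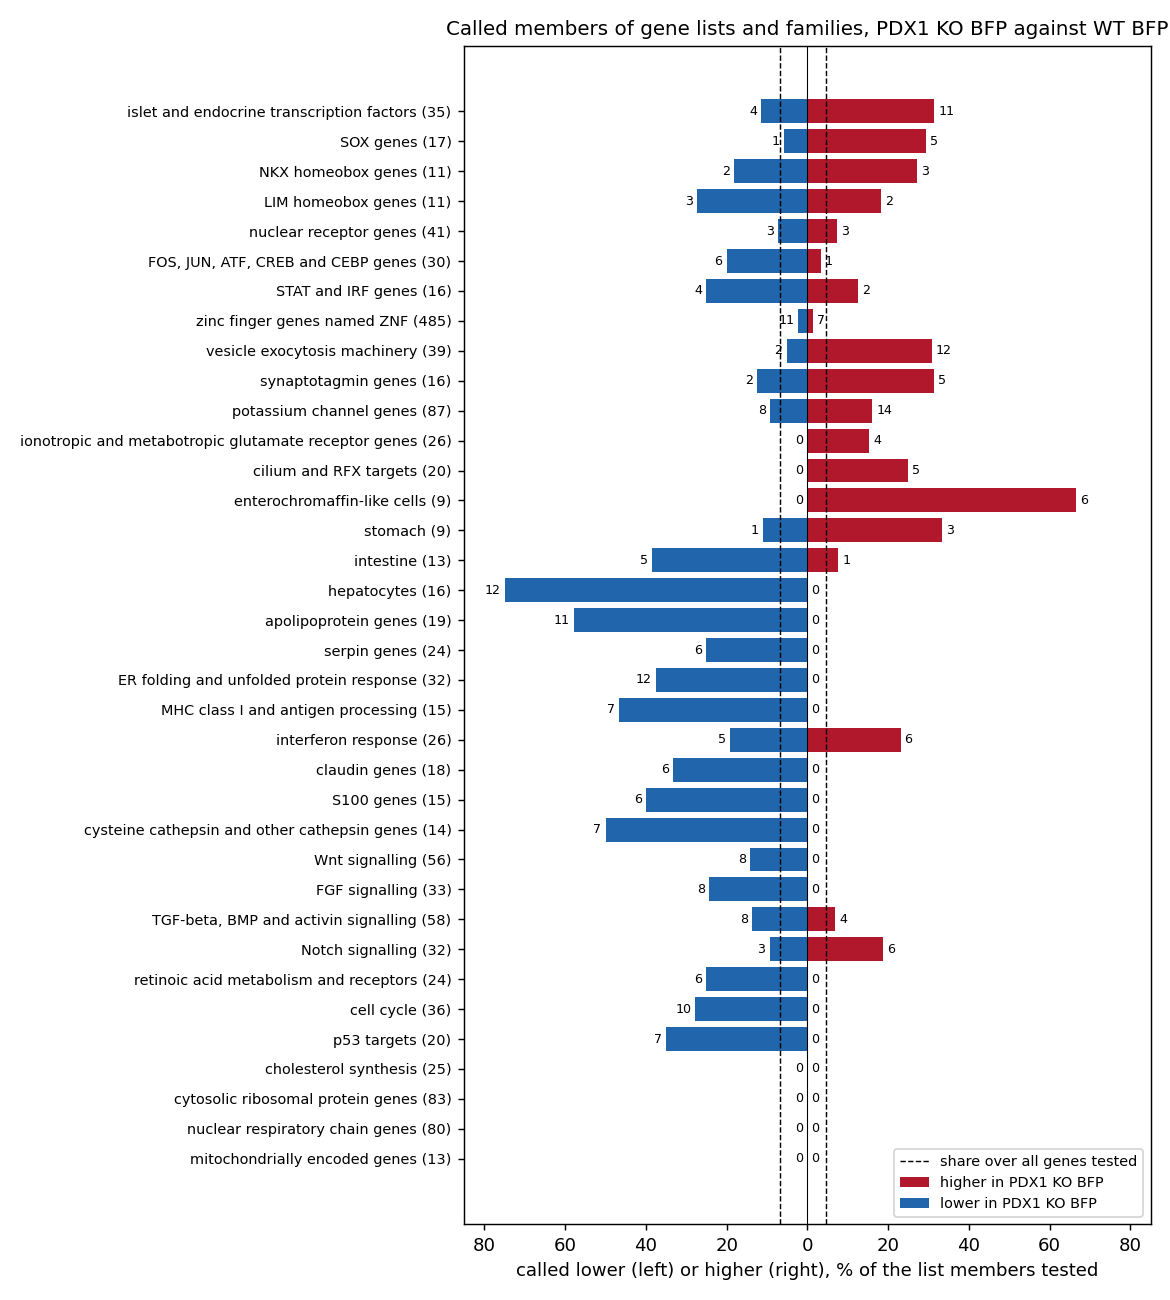
Share of the tested members (their number in brackets) of 36 of the lists, which leave out the islet cell type markers, called higher, to the right, or lower, to the left, in PDX1 KO against WT, with the number called beside each bar and the share over all genes tested as dashed lines. Hepatocyte, apolipoprotein and cathepsin genes lie furthest to the left among the lists shown and enterochromaffin-like markers furthest to the right, while the 4 lists at the bottom have no call.

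Of the signalling pathways described here, all but Notch and Hedgehog had more genes called lower than higher. The same held over all genes tested, with 1518 lower and 1012 higher. Of 56 Wnt pathway genes 8 fell and none rose (1 to 7 fell with 1 library left out), and 6 rose and 22 fell in the 19-library fit. The 8 were 14.3% of that list, against 6.84% of all genes called lower and 11.4% called in either direction. DESeq2 called 2 genes of that list higher and 8 lower. The WNT ligand genes, followed as a family apart, had 2 of 16 tested higher and 0 lower. That is 12.5%, near the 11.4% of all genes, and 2 were higher and 3 lower in the 19-library fit. LGR6, a receptor of R-spondins, had 0.605, 0.299 and 0.360 CPM in PDX1 KO, against 8.38 and 9.56 CPM in WT (-4.41 ± 0.92). In the FGF pathway 8 of 33 fell and none rose (4 to 8 fell with 1 library left out), and 4 rose and 17 fell in the 19-library fit. FGF2 had 2.07, 1.45 and 2.36 CPM in PDX1 KO and 4.84 and 5.11 CPM in WT, and the FGF coreceptor KLB had 7.10, 5.89 and 5.998 CPM in PDX1 KO, against 19.7 and 20.5 CPM in WT (-1.67 ± 0.25). The feedback inhibitor SPRY2 had 18.4, 13.5 and 15.3 CPM in PDX1 KO, against 52.6 and 41.7 CPM in WT (-1.59 ± 0.25). Of the TGF-beta, BMP and activin genes 4 of the 58 tested rose and 8 fell (0 to 4 and 2 to 5 with 1 library left out, 11 and 18 in the 19-library fit). BMP2, a ligand, had 32.4, 26.1 and 32.3 CPM in PDX1 KO, against 182.3 and 220.9 CPM in WT (-2.73 ± 0.41). The receptor ACVR1C, also called ALK7, had 108.2, 117.9 and 145.5 CPM in PDX1 KO, against 289.6 and 478.1 CPM in WT (-1.63 ± 0.27). Of the Notch genes 6 of the 32 tested rose and 3 fell (0 to 3 and 1 to 2 with 1 library left out, 8 and 7 in the 19-library fit). The ligand DLL4 had 139.9, 134.3 and 123.5 CPM in PDX1 KO and 45.5 and 43.8 CPM in WT and lost its call without either WT library (adjusted p up to 0.127). The target gene HEYL had 0.826, 0.252 and 0.440 CPM in PDX1 KO and 3.18 and 2.72 CPM in WT (-2.55 ± 0.45). In retinoic acid metabolism 6 of 24 fell and none rose (2 to 4 fell with 1 library left out), and 4 rose and 10 fell in the 19-library fit. RBP2, the retinol-binding protein of gut cells, had 0.147, 0.0315 and 0.0400 CPM in PDX1 KO and 1.11 and 1.29 CPM in WT. Of 19 genes of the insulin-like growth factor axis 5 fell and none rose (2 to 5 fell with 1 library left out). The binding proteins IGFBP4 and IGFBP7 were lower, IGFBP4 at 7.85, 4.52 and 4.70 CPM in PDX1 KO, against 71.6 and 70.03 CPM in WT (-3.64 ± 0.55), and IGFBP7 at 14.2, 8.69 and 11.996 CPM in PDX1 KO and 59.5 and 65.1 CPM in WT (-2.42 ± 0.48). DISP2, a relative of the protein that releases Hedgehog ligands, had 71.7, 62.9 and 71.4 CPM in PDX1 KO, against 18.8 and 20.1 CPM in WT (1.82 ± 0.27). It was the single called gene of 18 in the Hedgehog pathway, 5.56%, against 11.4% of all genes.

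Among 36 cell cycle genes 10 fell and none rose, and this count moved with single libraries, since 0 to 6 fell with 1 library left out and 25 fell and 2 rose in the 19-library fit. MCM6, a subunit of the replicative helicase, had 29.8, 22.9 and 23.03 CPM in PDX1 KO, against 77.1 and 63.9 CPM in WT (-1.48 ± 0.33), and its call was lost without WT replicate 1 (adjusted p = 0.0891). Of 20 p53 targets 7 fell and none rose (1 to 3 fell with 1 library left out), among them the death receptor FAS, at 5.05, 4.38 and 6.08 CPM in PDX1 KO, against 13.3 and 15.7 CPM in WT (-1.49 ± 0.30). In glycolysis 2 of the 22 tested rose and 3 fell (0 to 2 and 1 to 2 with 1 library left out, 4 and 14 in the 19-library fit). LDHA, lactate dehydrogenase, had 176.9, 191.2 and 182.5 CPM in PDX1 KO, against 595.9 and 788.1 CPM in WT (-1.91 ± 0.44), with an adjusted p of 0.0889 without WT replicate 3. The neuronal-type glucose transporter SLC2A3 had 16.6, 16.8 and 16.9 CPM in PDX1 KO, against 50.3 and 56.8 CPM in WT (-1.67 ± 0.22). SLC2A2, the transporter of liver and beta cells, had 3.78, 1.72 and 1.64 CPM in PDX1 KO, against 23.6 and 26.8 CPM in WT (-3.40 ± 0.51). Of 19 hypoxia genes 5 fell and none rose (2 to 4 fell with 1 library left out). The collagen prolyl hydroxylase P4HA2 had 143.2, 139.4 and 175.8 CPM in PDX1 KO, against 397.7 and 459.4 CPM in WT (-1.49 ± 0.30), and the collagen crosslinker LOX 3.16, 1.67 and 2.12 CPM in PDX1 KO and 11.5 and 10.2 CPM in WT (-2.23 ± 0.30).

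For 4 lists of ribosomal, mitochondrial and cholesterol synthesis genes edgeR gave no call. None of 83 cytosolic ribosomal protein genes was called, with a median of -0.29, 1 at an unadjusted p under 0.05 and none called by DESeq2, while 1 was higher and 34 lower in the 19-library fit. None of the 80 nuclear genes of the respiratory chain was called (median 0.05, none at an unadjusted p under 0.05 and none by DESeq2, 3 higher and 4 lower in the 19-library fit). The 13 mitochondrially encoded genes gave no call by either tool, none at an unadjusted p under 0.05 and none in the 19-library fit. None of the 25 genes of cholesterol synthesis was called (median 0.20, 1 at an unadjusted p under 0.05, none by DESeq2, 8 higher and 1 lower in the 19-library fit). IDI1, an isomerase of that pathway and among its best expressed genes, had a log2 fold change of 0.20 ± 0.33 (adjusted p = 0.784).

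PDX1 KO was also set against ISL1 KO and PAX6 KO, the knockouts of 2 other islet transcription factors, 3 libraries each under the same vector. Against ISL1 KO 530 genes were higher and 735 lower in PDX1 KO (2.39% and 3.31% of all genes tested, 5.7% together). Against PAX6 KO 425 were higher and 376 lower (1.91% and 1.69%, 3.61% together). With library size alone in place of TMM scaling the higher genes were 38.3% of the calls against PAX6 KO, instead of 53.1%. These counts share the PDX1 KO libraries with each other and with the comparison with WT. Hepatocyte markers had 1 of 16 higher and 0 lower against ISL1 KO, and no call against PAX6 KO. Folding genes had 1 of 32 higher and 1 lower against ISL1 KO, and 1 lower against PAX6 KO. Enterochromaffin-like markers had 0 of 9 called against ISL1 KO, and 4 higher against PAX6 KO (1 to 2 with 1 library left out). Apolipoprotein genes had 5 of 19 lower against ISL1 KO and 1 against PAX6 KO. Where calls were few, the change against WT was not shown to be particular to PDX1 KO. Cell cycle genes were the list with the most calls against ISL1 KO, with 25 of 36 lower in PDX1 KO and 1 higher (12 to 23 lower and 0 higher with 1 library left out), and 2 lower against PAX6 KO (0 to 3 with 1 library left out). CDK1, the kinase of mitosis, had 21.5, 17.9 and 16.5 CPM in PDX1 KO and 62.5, 60.5 and 45.2 CPM in ISL1 KO (-1.59, adjusted p = 0.00382). Its cyclin CCNA2 had 17.2, 12.7 and 13.1 CPM in PDX1 KO and 54.3, 56.1 and 33 CPM in ISL1 KO (-1.74). MYBL2, a factor that drives mitotic genes, had 20.4, 13.1 and 9.90 CPM in PDX1 KO and 71.2, 64.6 and 46.3 CPM in ISL1 KO (-2.07). These 3 genes differed between PDX1 KO and ISL1 KO with any of the 6 libraries left out. Cholesterol synthesis had 9 of 25 genes higher against ISL1 KO and none lower (3 to 6 higher with 1 library left out).

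The interferon list had 7 of 26 genes higher and none lower in PDX1 KO against PAX6 KO (5 to 7 higher with 1 library left out), and 1 higher and 3 lower against ISL1 KO. IFI6 had 527.5, 718.7 and 606.9 CPM in PDX1 KO and 188.7, 136.4 and 177.4 CPM in PAX6 KO (1.88, adjusted p = 0.00497). IRF7, which switches on interferon genes, had 51.02, 52.7 and 50.5 CPM in PDX1 KO and 23.01, 22.2 and 24.5 CPM in PAX6 KO (1.15). IFIT1, an interferon-induced binder of foreign RNA, had 19.7, 26.4 and 22.5 CPM in PDX1 KO and 7.24, 9.20 and 9.53 CPM in PAX6 KO (1.40). All 3 stayed called against PAX6 KO with any of the 6 libraries left out. Semaphorin and plexin genes had 7 of 29 lower in PDX1 KO against PAX6 KO (1 to 4 with 1 library left out).

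The following genes differed in PDX1 KO from WT and from each of the other knockouts, and were picked from among such genes after their values were seen. NKX3-2 had 37.998, 50.1 and 67.1 CPM in PDX1 KO, 2.89, 2.49 and 4.16 CPM in ISL1 KO, 2.004, 1.75 and 1.57 CPM in PAX6 KO and 1.09 and 1.24 CPM in WT. ADRB1 had 12.95, 16.5 and 13.6 CPM in PDX1 KO, 0.760, 0.883 and 0.818 CPM in ISL1 KO, 1.80, 1.75 and 1.52 CPM in PAX6 KO and 1.01 and 0.769 CPM in WT. RGS7BP had 41.7, 48.5 and 65.9 CPM in PDX1 KO, 6.81, 6.47 and 7.09 CPM in ISL1 KO, 4.86, 4.11 and 6.71 CPM in PAX6 KO and 4.33 and 4.51 CPM in WT. In these 3 genes the PDX1 KO libraries lay above all 8 others, and every call held with any 1 library left out. KLK10, KLK11 and KLK12, serine proteases of the kallikrein cluster on chromosome 19, stand next to each other. KLK12 had 5.80, 12.2 and 11.6 CPM in PDX1 KO, 0.809, 0.738 and 0.660 CPM in ISL1 KO, 3.08, 2.17 and 2.28 CPM in PAX6 KO and 0.476 and 0.495 CPM in WT, and KLK10 and KLK11 were higher in PDX1 KO as well, with log2 fold changes over WT of 3.03 ± 0.43 and 4.54 ± 0.59. Against PAX6 KO the calls of KLK10 and KLK11 did not hold in every fit that left out a library (adjusted p up to 0.189 and 0.0704). ARHGAP36 was nearly absent in PDX1 KO and highest in PAX6 KO, at 0, 0 and 0.0200 CPM in PDX1 KO, 0.372, 0.530 and 0.818 CPM in ISL1 KO, 18.6, 9.70 and 22.1 CPM in PAX6 KO and 0.655 and 0.769 CPM in WT. CHRNA3, a nicotinic acetylcholine receptor subunit, had 11.8, 7.78 and 3.94 CPM in PDX1 KO, 29.01, 34.3 and 33.1 CPM in ISL1 KO, 38.6, 30.8 and 27.3 CPM in PAX6 KO and 35.8 and 77.7 CPM in WT. CHRNB4, its neighbour on chromosome 15, had 4.22, 2.64 and 1.48 CPM in PDX1 KO, 13.5, 17.4 and 9.40 CPM in ISL1 KO, 12.2, 13.3 and 8.34 CPM in PAX6 KO and 14.7 and 24.2 CPM in WT, with adjusted p of up to 0.0948 against PAX6 KO when 1 library was left out. IGF2, a growth factor gene next to INS, had 162.5, 124.5 and 127.1 CPM in PDX1 KO, 359.2, 318.3 and 289.6 CPM in ISL1 KO, 361.6, 415.2 and 408.7 CPM in PAX6 KO and 309.03 and 250.97 CPM in WT. The PDX1 KO libraries were the lowest in both of these loci, and the call of IGF2 against WT was lost without WT replicate 1 (adjusted p = 0.0833).

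**Figure D4:**
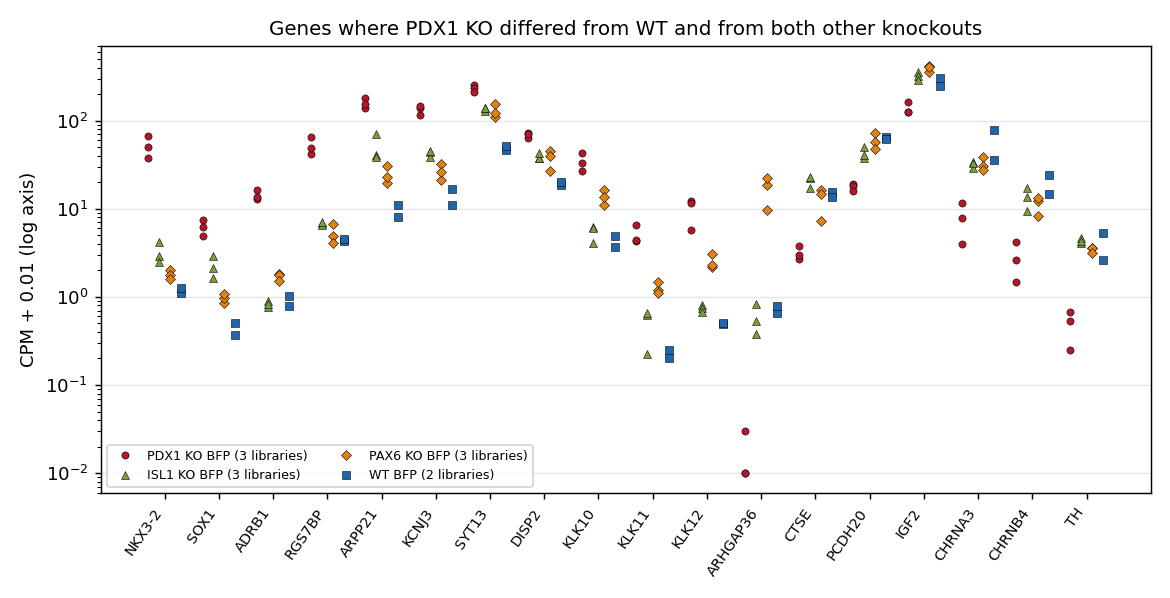
CPM per library (log axis, 0.01 added) of 18 genes called in PDX1 KO against WT, against ISL1 KO and against PAX6 KO, all under the BFP vector, picked after their values were seen. Each marker is 1 library, with PDX1 KO leftmost within a gene. NKX3-2, ADRB1 and KLK12 lie highest in PDX1 KO and ARHGAP36, CHRNA3 and IGF2 lowest. Several calls against the other knockouts were lost with 1 library left out. DISP2 kept its call in 0 of 6 such fits against ISL1 KO and 1 of 6 against PAX6 KO, SYT13 in 1 and 2. SOX1 kept it in 1 of 6 against ISL1 KO and 6 of 6 against PAX6 KO, while NKX3-2, ADRB1 and RGS7BP kept theirs in all 6 against both.

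Libraries labelled PDX1 KO were also made after the ISL1 vector, PDX1 KO ISL1 OE replicates 2 and 4, beside WT ISL1 OE replicates 1 and 2. The label of replicate 4 is in doubt for the INS level given above, so the counts are given without it as well. With both, 101 genes were higher and 72 lower in PDX1 KO than in WT (0.455% and 0.324% of all genes tested, 0.779% together). Of these calls 58.4% were higher, against 36.6% with library size alone in place of TMM scaling. No gene was called without WT ISL1 OE replicate 1 and 10 without WT ISL1 OE replicate 2, against 8709 without PDX1 KO ISL1 OE replicate 2 and 634, 378 higher and 256 lower, without the library with the label PDX1 KO ISL1 OE replicate 4. With both libraries, of the genes that rose under the BFP vector 766 of 1012 (75.7%) were also higher in PDX1 KO under the ISL1 vector, and of those that fell 910 of 1518 (59.9%) were also lower. Without the library labelled replicate 4 these were 930 of 1012 (91.9%) and 1297 of 1518 (85.4%). The pair labelled PDX1 KO differed from each other. Replicate 2 lay beyond both WT ISL1 OE libraries, in the direction seen under BFP, in 850 of the 1012 genes and 1232 of the 1518, and the library labelled replicate 4 in 381 and 622. The shares of called genes in this paragraph were not computed over all genes tested, so how far called genes stand out is not shown. Among the 321 genes named by the rule for the BFP comparison, replicate 2 differed from WT in the opposite direction in 8 of 127 that rose and 29 of 194 that fell, and the library labelled replicate 4 in 81 and 96. The scaling factor of the library labelled replicate 4 was 0.707, the lowest of the 21 libraries.

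**Figure D5:**
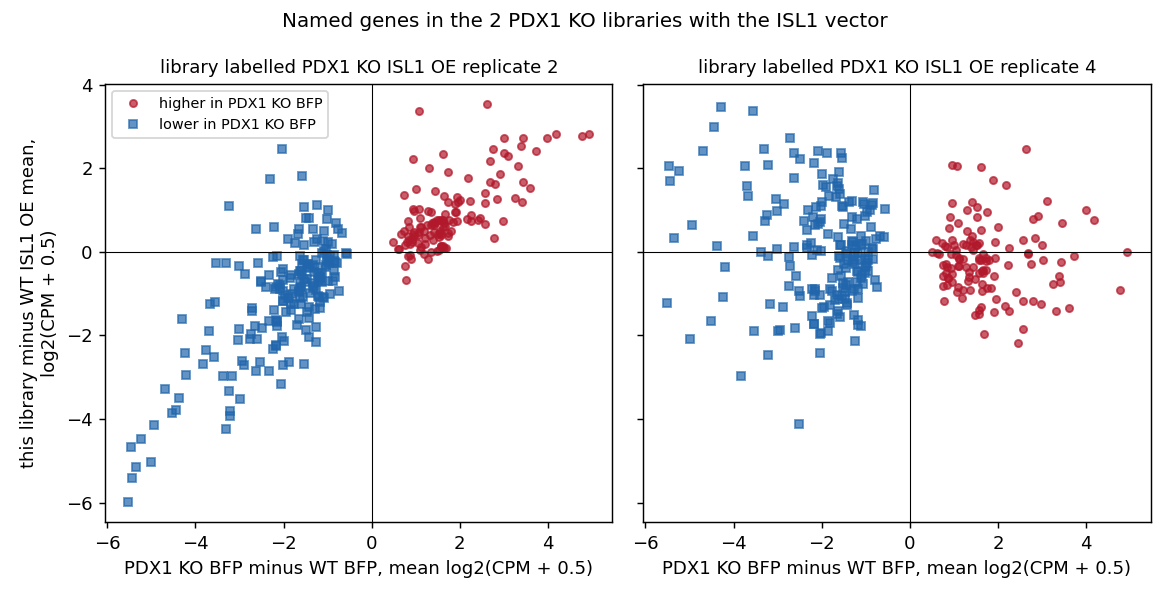
For each of the 321 named called genes, the log2 difference PDX1 KO minus WT under the BFP vector (horizontal axis) and for 1 PDX1 KO ISL1 OE library minus the mean of the WT ISL1 OE libraries (vertical axis), one panel for each library, on log2(CPM + 0.5). The points of replicate 2 lie on the opposite side of 0 for 8 of the 127 genes that rose and 29 of the 194 that fell, those of the library labelled replicate 4 for 81 and 96.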

How the data were processed

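RNA of islet-like cells from H1 was made into cDNA with SMART-Seq v4 and into libraries with KAPA EvoPrep, per the labels' protocols, without marking strand and without molecular identifiers. The authors deposited estimated counts per gene, with a column for every lane of a library. STAR and GRCh38 are named in the submitters' processing notes, and no source used here names the counting tool. Without strand, reads of overlapping or antisense genes cannot be told apart, and near-identical genes may share reads.

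The 4 lanes of each library were summed (lowest correlation between lanes 0.990) and rounded to whole counts. A duplicated column was used once, and 12 columns of 3 libraries that match no sample were not used. Gene IDs were matched to symbols and coordinates of GENCODE 29 (GRCh38). Of 38592 genes, 22207 passed edgeR's filter on low counts. edgeR 4.0.16 (R 4.3.3) with TMM scaling and its quasi-likelihood test was fitted on 21 libraries with 1 mean per group, and p-values were adjusted by Benjamini-Hochberg. The standard error was taken from the fold change and its test statistic. The fit was checked on simulated counts. P-values measure the spread between libraries, with 3 PDX1 KO and 2 WT libraries in the main comparison.

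Named genes were PDX1, the 15 largest rises and falls among genes with a symbol, non-overlapping groups and a mean log2 CPM of at least 2, the 10 transcription factors with the largest rise and fall by the same filters, up to 4 called members of each list and direction with the smallest adjusted p, and up to 2 best expressed members of a list with no call. Members, lists and tests were chosen with earlier results of these data known. Of the genes so named the text gives a selection, and a few are not reported here. The alternatives were DESeq2 1.42.0, other scalings, no filter, fewer groups, a replicate block, a lane term and each library left out. WT BFP has replicates 1 and 3 among the libraries used.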

Additional observations from a re-analysis of the deposited data

Results flagged for a closer look

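Libraries labelled PDX1 KO were made under both vectors. For 303 of the 22207 genes tested the log2 difference between PDX1 KO and WT under the ISL1 vector differed from that under BFP (edgeR's interaction term, adjusted p under 0.05). Without the library with the label PDX1 KO ISL1 OE replicate 4, whose label is in doubt for its INS level, there were 135 such genes, 95 of them shared. Of the genes named in the report 33 were among the 303, and 11 of these stayed called without that library. The named genes were mostly chosen by their change under BFP, which is also subtracted in this difference. That choice by itself favours a smaller change under ISL1, so these 33 are no separate test of a difference between vectors. Differences below are the log2 change under the ISL1 vector minus that under BFP, so that a positive value for a gene that fell under BFP means a smaller fall or a rise under ISL1.

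Of the 11, 8 fell and 3 rose under BFP. CLDN1 differed by 3.79 (log2 change 1.43 under ISL1 and -2.37 under BFP), SPP1 by 4.05 (1.26 under ISL1 and -2.79 under BFP), CTSE by 4.05, SLC2A2 by 4.46, SYT8 by 2.96, APOC1 by 3.56 (2.21 without that library), ANXA4 by 2.23 and IGF2 by 1.85. Of the genes that rose under BFP, KIRREL3 differed by -4.18 (-0.29 under ISL1 and 3.89 under BFP), ADRB1 by -3.29 (0.71 under ISL1 and 4.0 under BFP) and SYT13 by -1.80.

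The other 22 were not called without the library with the label PDX1 KO ISL1 OE replicate 4, and many of their differences were then much smaller. The differences were 7.81 for GIP (0.97 without that library), 7.52 for LGALS4 (3.12 without), 6.36 for CA3 (1.04 without) and 6.35 for GAST (0.87 without). They were 6.28 for RBP2 (3.36 without), 6.14 for NR2E3 (1.25 without), 5.99 for FABP1 (2.36 without) and 4.49 for S100A16 (1.37 without). For genes of liver-type secreted proteins they were 4.39 for RBP4 (1.80 without), 4.21 for SERPINC1 (3.04 without), 3.51 for ALB (2.72 without), 2.53 for FGB (1.61 without) and 2.39 for AFP (1.31 without). They were 3.94 for CEBPD (1.84 without), 2.51 for HLA-C (1.14 without), 2.10 for CLDN6 (1.34 without) and 1.26 for PDIA6 (0.95 without). Of genes that rose under BFP, KCNJ3 differed by -2.67 (-1.95 without), KLK12 by -2.51 (-1.97 without), UNC5D by -2.06 (-1.61 without), SYT6 by -1.69 (-1.51 without) and DISP2 by -1.67 (-1.34 without).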

How the results depend on the processing

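For the 149 genes named in the text no alternative turned the direction of a difference between PDX1 KO and WT. DESeq2's size factors changed no call among them, and 31 and 22 calls were lost without WT replicate 1 and WT replicate 3, 3 to 12 without 1 PDX1 KO library. The number of genes called between PDX1 KO and WT, 2530, was 771 to 1785 with 1 library left out, 6632 with only the 2 groups compared, 6944 with only the groups under the same vector and 7655 without the 2 libraries that stand apart. The cause of these moves was not tested. DESeq2 gave 3698, DESeq2's size factors 2546, library size alone 2260, no filter 2130 and a term for lanes, added after seeing the data, 2205. Library size alone moved the median log2 fold change of all genes to 0.13, against 0.02. For the 1265 genes called against ISL1 KO these values were 530 to 976 with 1 library left out, 2329 with DESeq2, 5212 with 2 groups, 5225 with the same vector and 5994 without the 2 libraries. Against PAX6 KO the 801 genes became 376 to 549 with 1 library left out, 1624 with DESeq2, 3037 with 2 groups, 3775 with the same vector and 4628 without the 2 libraries. Under the ISL1 vector the 173 genes became 0 to 8709 with 1 library left out, 681 with DESeq2, 101 with library size alone, 108 with the lane term and 1817 without the 2 libraries; with 2 groups and with the same vector edgeR called 0, while 644 and 1305 had an unadjusted p under 0.05. Replicate numbers shared between PDX1 KO and WT are 1 and 3 only, and their deviations correlated at 0.449 and 0.183. The samples share only a number, so no pairing was assumed. With the replicate number as a block, 4584 genes were called between PDX1 KO and WT, 2842 against ISL1 KO, 2026 against PAX6 KO and 745 under the ISL1 vector. With 2 WT libraries, a left-out WT library leaves 1, which is assumed to vary like the other groups.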

Other observations

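The library with the label PDX1 KO ISL1 OE replicate 4 held RNA of AC079062.1 and NLRP2, which the other knockout libraries nearly lacked. AC079062.1 lay within the WT range and NLRP2 below it. AC079062.1 had 21.5 CPM in it and at most 0.0928 CPM in the 16 other knockout libraries, 12 of them at 0, against 15.4 to 21.6 CPM in the 4 WT libraries. NLRP2, a gene of innate immunity and early embryos, had 1.38 CPM in it and at most 0.181 CPM in the 16 other knockout libraries, 6 of them at 0, against 3.32 to 4.55 CPM in WT. AC079062.1 and NLRP2 were looked up after their values were seen. INS and GCG, at 44880 and 94730 CPM in that library, lay above all 4 WT libraries. The cause was not tested.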
